A study of Mus musculus with 5 samples.

Results

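The 9 genes described here were listed as monocyte lysosome and oxidase genes: Ctss, Cybb, Cyba, Ncf1, Ms4a6b, Lyz1, Lyz2, Csf1r and Cst3. They encode lysosomal enzymes, subunits of the phagocyte oxidase, 2 cell surface proteins and a secreted protease inhibitor. They were followed through all probe sets to which the platform annotation gives exactly 1 gene symbol, that of a listed gene, which were 18 of 45101. RNA from whole blood was measured on Affymetrix expression arrays, with 1 array per sample, to look for differences in basal expression between adult females of 2 F1 crosses. One cross had the parents AKR/J and FVB/NJ (AKRxFVB F1, n = 2) and the other DBA/2J and FVB/NJ (DBAxFVB F1, n = 3), so every animal carried 1 FVB/NJ genome. All animals were killed under Avertin anaesthesia and bled by cardiac puncture, and no group had any other treatment in the labels. The labels do not say which strain was the mother or whether each sample came from a separate animal, so the p-values measure no more than the spread among these samples and part of it may be technical.

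Phagocytes take up microbes and debris into vesicles that fuse with lysosomes, where cathepsins and lysozyme digest the content. The phagocyte NADPH oxidase is a membrane pair of Cybb and Cyba that cytosolic subunits, Ncf1 among them, switch on to make superoxide. Csf1r is the receptor through which the growth factor Csf1 sustains monocytes and macrophages, and Cst3 is a secreted inhibitor of cathepsins such as Ctss. Several of these genes are also used by other blood cells: neutrophils carry the oxidase and lysozyme, and B cells and dendritic cells use Ctss to trim the invariant chain of class II molecules. In whole blood, fewer cells of a type and less RNA per cell cannot be told apart.

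The values are log2 expression per probe set. DBAxFVB F1 array 3 stood apart before any comparison: its 18 hybridisation control probe sets had a median of 7.99, against 10.01 to 10.12 on the other arrays. The 3-prime minus 5-prime difference of the Actb control probe sets, a measure of RNA quality that grows as RNA is degraded or shortened, was 1.32 on that array, 1.22 and 1.03 on AKRxFVB F1 arrays 1 and 2, and 0.82 and 0.68 on DBAxFVB F1 arrays 1 and 2. For Gapdh it was 1.33 on DBAxFVB F1 array 3, 1.04 and 0.73 in AKRxFVB F1, and 0.62 and 0.58 on DBAxFVB F1 arrays 1 and 2. The brightest probe set of each member, and the main marker lists, are therefore also given without DBAxFVB F1 array 3. Differences are DBAxFVB F1 minus AKRxFVB F1, and errors after a difference are standard errors of limma, a linear model that shares variance information across probe sets.

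All 9 genes were measured at lower mean levels in DBAxFVB F1 than in AKRxFVB F1 blood by their brightest probe set, with a median difference of -0.70, but none passed the test. Ctss, Cybb and Ms4a6b differed by more than 1 log2 unit downwards, as did 2.35% of all probe sets tested. Lyz1, Cst3, Cyba, Csf1r and Lyz2 differed by -0.44 to -0.88, and Ncf1 by -0.28. The part of Lyz2 signal in the Lyz1 value was not tested. Of the 18 probe sets, 16 were bright enough to be tested, at least 1 for each gene. Of these 16, 14 were lower in DBAxFVB F1, against 43.2% of all probe sets tested. The exceptions were Csf1r 1423593_a_at, at 0.04, and 1419873_s_at, at 0.06. The share of all probe sets grew with brightness, from 37.7% at a mean of 2.5 to 3 to 91.5% at 8 to 9. The median over all 22519 probe sets tested was 0.04.

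**Figure D1:**
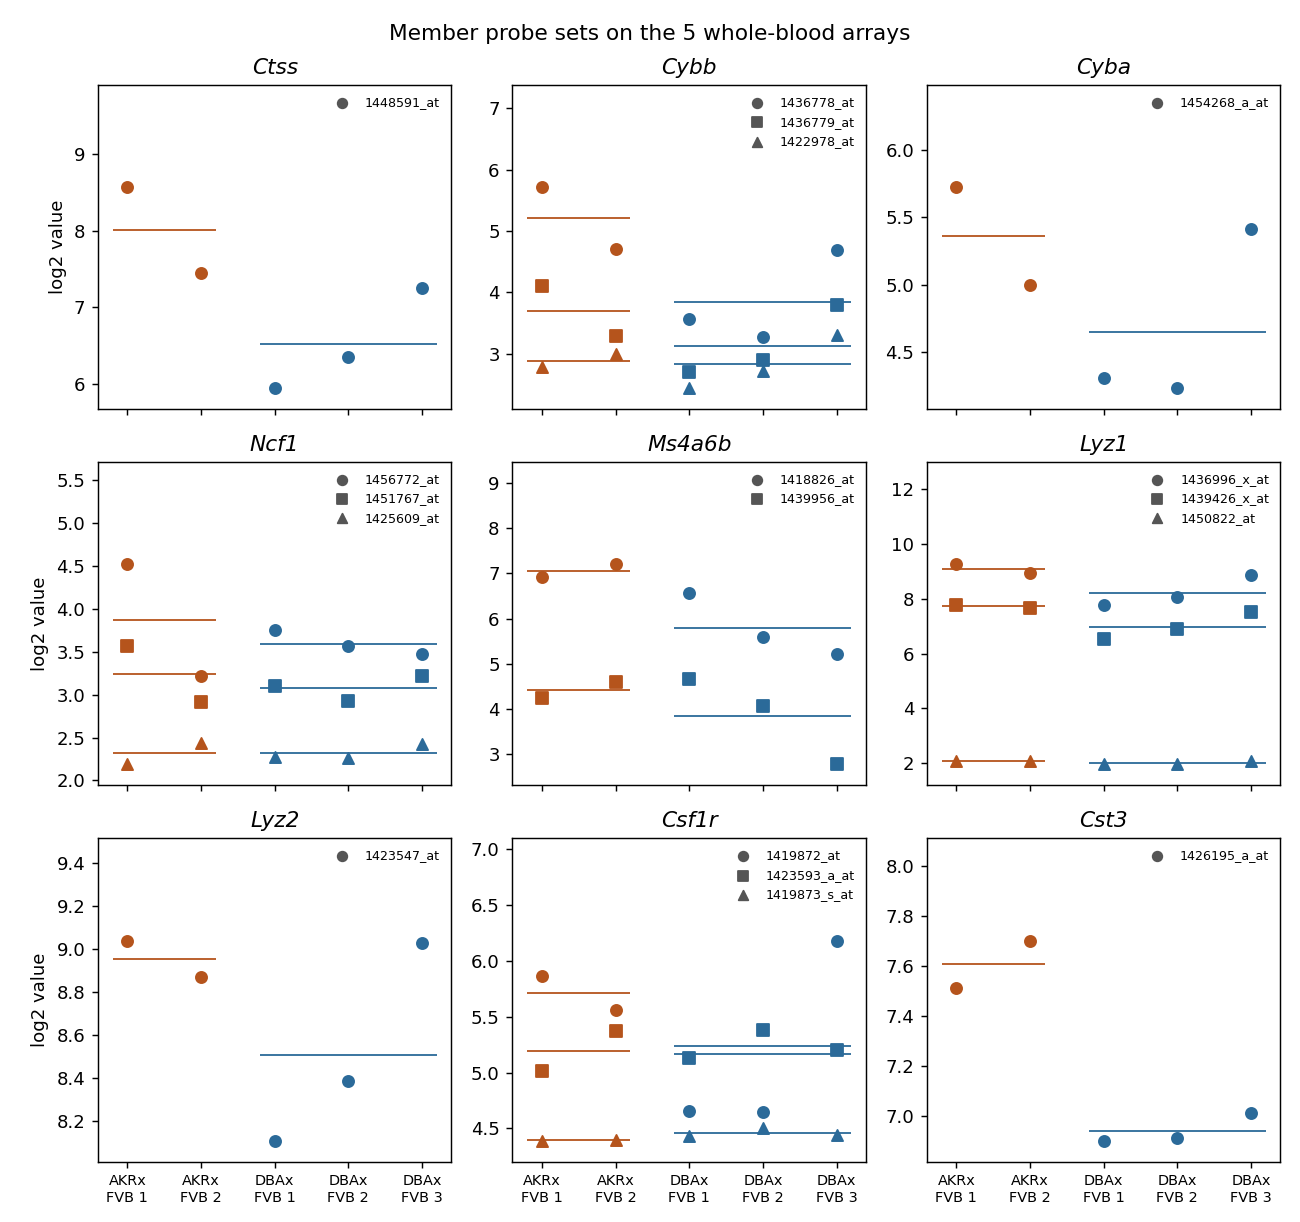
Log2 values (y axis, separate scale per gene) of every member probe set on the 5 arrays (x axis), AKRxFVB F1 in orange and DBAxFVB F1 in blue, with marker shapes for probe sets and lines at the mean of each cross. Ctss, the brightest probe set of Cybb, the bright probe sets of Lyz1 and Csf1r 1419872_at lay lowest on DBAxFVB F1 arrays 1 and 2 and higher on array 3, while Ms4a6b 1418826_at was lowest on array 3.

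Limma called 0 of the 16 member probe sets at a Benjamini-Hochberg adjusted p below 0.05, and 0 of all 22519 probe sets (0%). The smallest adjusted p of any probe set was 0.131. At an unadjusted p below 0.05, 3 of the 16 (18.8%) were lower in DBAxFVB F1, against 6.79% of all probe sets tested, and 0 were higher, against 3.59%. The groups did not overlap, with every DBAxFVB F1 array lower, for 6 of the 16 (37.5%), against 12.6% of all probe sets. These included both bright Lyz1 probe sets, whose signal was not told apart from that of Lyz2. The shares of all probe sets given here were not matched for level, and bright probe sets were more often lower. The number at an unadjusted p below 0.05 in either direction changed when single DBAxFVB F1 arrays were dropped. Dropping array 3 gave 10 of the 16 members and 2514 of all 22519 probe sets. Dropping array 1 gave 1 member and 2228 of all, and dropping array 2 gave 0 members and 1834 of all. Dropping an AKRxFVB F1 array leaves 1 array in that cross, so no count is given for it.

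Among the lysosomal enzymes, Ctss, the cysteine protease cathepsin S, had the largest difference of the 9 genes. Its 1 probe set, 1448591_at, read 8.56 and 7.45 in AKRxFVB F1, and 5.96, 6.36 and 7.25 on arrays 1, 2 and 3 of DBAxFVB F1. The groups did not overlap, but DBAxFVB F1 array 3 lay just under AKRxFVB F1 array 2. The means were 8.01 ± 0.78 (SD, n = 2) and 6.52 ± 0.66 (SD, n = 3), a difference of -1.49 ± 0.50, or 2.80-fold (limma adjusted p = 0.382). The difference was -1.85 without DBAxFVB F1 array 3 and -0.93 without AKRxFVB F1 array 1, and it was -0.91 after quantile normalization.

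The lysozyme genes Lyz1 and Lyz2 encode closely related enzymes that cleave bacterial cell walls, and they are neighbours on chromosome 10. The brightest Lyz1 probe set, 1436996_x_at, read 9.27 and 8.93 in AKRxFVB F1, and 7.76, 8.05 and 8.86 in DBAxFVB F1. Its difference was -0.88 ± 0.43 (limma adjusted p = 0.531), and the groups did not overlap, by a margin between AKRxFVB F1 array 2 and DBAxFVB F1 array 3 that was small beside the range of 1.52 over the arrays. The difference was -1.20 without DBAxFVB F1 array 3, -0.45 after cyclic loess normalization and -0.28 after quantile normalization. The second, 1439426_x_at, followed it, with a difference of -0.74 ± 0.38 that was -0.42 and -0.15 after these normalizations. The third Lyz1 probe set, 1450822_at, read between 1.96 and 2.09 on all 5 arrays, in the lowest part of the scale (percentile 16 of all probe sets by mean), and was too dim to be tested.

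Lyz2, the lysozyme gene typical of macrophages, read 9.04 and 8.87 in AKRxFVB F1, and 8.11, 8.39 and 9.03 in DBAxFVB F1, by 1423547_at. The groups overlapped, because DBAxFVB F1 array 3 lay between the AKRxFVB F1 arrays. The difference was -0.44 ± 0.40, with a 95% confidence interval from -1.36 to 0.48 (limma adjusted p = 0.721). It was -0.71 without DBAxFVB F1 array 3 and 0.15 after quantile normalization, so its direction depended on the scaling.

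The bright Lyz1 probe sets carry the suffix _x_at, which the array maker gives to sets with probes that also match other transcripts. Their values, each centred on its own mean, differed from those of Lyz2 by a root mean square of 0.23 for 1436996_x_at and 0.15 for 1439426_x_at, and from each other by 0.11. How far their signal comes from Lyz1 or Lyz2 was not tested, so the values given for Lyz1 are uncertain. The third Lyz1 probe set, 1450822_at, which lacks this suffix, was too dim to be tested.

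Upstream sequences are shown for the lysozyme pair, whose bright probe sets followed each other, and for Ctss, the gene with the largest difference, and Cst3, its inhibitor. They are from RefSeq on build GRCm38.p6 and end at the base before the transcription start. For Lyz1 (chr10:117292869-117292988, minus strand) and Lyz2 (chr10:117282273-117282392, minus strand) the last 120 bases are given, a length chosen after the sequences were seen, with capitals at the 9 positions where they differ. The other 111 positions (92.5%) were identical, including all of the 50 nearest to the start.
Lyz1: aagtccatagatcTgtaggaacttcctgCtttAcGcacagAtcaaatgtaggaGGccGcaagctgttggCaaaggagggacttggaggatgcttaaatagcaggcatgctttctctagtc
Lyz2: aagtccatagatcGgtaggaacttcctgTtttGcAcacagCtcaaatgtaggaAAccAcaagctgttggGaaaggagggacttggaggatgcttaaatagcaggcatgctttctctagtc

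In the sequences of Ctss (chr3:95526536-95526785, plus strand) and Cst3 (chr2:148875513-148875762, minus strand), 250 bases each, capitals mark GAGGAA. This is the core that PU.1, a transcription factor of the myeloid and B lineages, prefers, and it was searched on both strands.
Ctss: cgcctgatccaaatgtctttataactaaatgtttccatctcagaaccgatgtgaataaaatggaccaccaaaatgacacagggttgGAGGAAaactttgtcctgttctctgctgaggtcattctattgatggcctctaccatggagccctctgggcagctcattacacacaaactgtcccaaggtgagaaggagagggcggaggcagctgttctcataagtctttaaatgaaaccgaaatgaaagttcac
Cst3: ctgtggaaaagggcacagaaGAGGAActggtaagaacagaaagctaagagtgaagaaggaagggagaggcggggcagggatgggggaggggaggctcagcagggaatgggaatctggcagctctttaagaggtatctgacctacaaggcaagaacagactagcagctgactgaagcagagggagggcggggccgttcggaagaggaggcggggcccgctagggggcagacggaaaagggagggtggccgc

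The match began 164 bases before the start in Ctss and 230 bases before it in Cst3. Of the 8 member genes with a window in the table, these 2 held the 6 letters, and 23.3% of all 32851 windows of 250 bases held them. The members' share is thus near that of all promoters.

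Cst3, the cystatin that blocks Ctss and related proteases outside cells, had the smallest spread within DBAxFVB F1 among the genes whose groups did not overlap. It read 7.51 and 7.70 in AKRxFVB F1, and 6.90, 6.91 and 7.01 in DBAxFVB F1. The difference was -0.67 ± 0.30 (limma adjusted p = 0.502), and it was -0.71 without DBAxFVB F1 array 3. After quantile normalization it was -0.12.

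The oxidase members differed to unequal extents. Cybb, the electron-carrying subunit gp91phox, read 5.71 and 4.71 in AKRxFVB F1, and 3.56, 3.28 and 4.69 in DBAxFVB F1, by its brightest probe set 1436778_at. The highest DBAxFVB F1 value thus nearly met the lowest AKRxFVB F1 value. The means were 5.21 ± 0.70 (SD, n = 2) and 3.84 ± 0.75 (SD, n = 3), a difference of -1.37 ± 0.46, or 2.58-fold (limma adjusted p = 0.382). The other 2 probe sets of Cybb were dimmer, with overlapping groups. Probe set 1436779_at differed by -0.56 ± 0.37, which was -0.15 without AKRxFVB F1 array 1 and -0.98 without array 2, and 1422978_at, whose mean of 2.85 lay near the lower end of the scale, by -0.06 ± 0.25. Without DBAxFVB F1 array 3 the difference of 1436778_at was -1.79, and without AKRxFVB F1 array 1 it was -0.87.

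Cyba, the p22phox subunit that stabilises Cybb in the membrane, read 5.72 and 5.0 in AKRxFVB F1, and 4.31, 4.24 and 5.41 in DBAxFVB F1. DBAxFVB F1 array 3 lay between the AKRxFVB F1 arrays, so the groups overlapped. The difference was -0.70 ± 0.41 (limma adjusted p = 0.595), or -1.08 without that array and -0.35 without AKRxFVB F1 array 1.

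Ncf1, the cytosolic organiser p47phox, did not share this order of arrays. Its brightest probe set, 1456772_at, read 4.52 and 3.22 in AKRxFVB F1, and 3.75, 3.56 and 3.47 in DBAxFVB F1. The AKRxFVB F1 arrays were thus the highest and the lowest of the 5. The difference of -0.28 ± 0.35 (limma adjusted p = 0.802) was 0.37 without AKRxFVB F1 array 1. Leaving out DBAxFVB F1 array 3 instead gave -0.22. Probe set 1451767_at differed by -0.16 ± 0.22, and 1425609_at had a mean of 2.32 and was not tested.

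Other oxidase genes came from a list of 7 partners, of which 6 had a tested probe set. All 6 were lower in DBAxFVB F1, against 43.2% of all probe sets tested. Their median was -0.67, and 0 passed the limma test over all genes. At an unadjusted p below 0.05 there were 2, against 6.79% of all probe sets tested that were lower at this threshold. They were Cybc1, the chaperone that the Cybb and Cyba pair needs, and Rac2, the GTPase that activates the oxidase in blood phagocytes. Cybc1 read 4.25 and 4.01 in AKRxFVB F1 against 3.47, 3.46 and 3.47 in DBAxFVB F1, a difference of -0.66 ± 0.18 (limma adjusted p = 0.251). Its groups lay apart by more than the spread within either. Rac2 read 6.55 and 5.68 against 5.21, 4.65 and 5.30, a difference of -1.06 ± 0.35 (limma adjusted p = 0.374). The cytosolic subunit Ncf4 differed by -0.66 ± 0.32, the proton channel Hvcn1 by -0.43 ± 0.20, Rap1a by -0.84 ± 0.49 and Rac1 by -0.69 ± 0.58. Rac1 and Rap1a were lowest on DBAxFVB F1 array 3, at 7.53 and 6.94, unlike Cybb and Cyba. Both had a mean of 8 to 9 over the arrays, a range in which 91.5% of probe sets were lower, with a median of -0.55. The median of the list was -0.54 without that array, -0.54 after cyclic loess normalization and -0.42 after quantile normalization.

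At the cell surface, Csf1r gave different results by probe set. Probe set 1419872_at read 5.86 and 5.56 in AKRxFVB F1, and 4.66, 4.65 and 6.18 in DBAxFVB F1. Array 3 of DBAxFVB F1 was the highest of the 5 and arrays 1 and 2 the lowest, so the groups overlapped. The difference was -0.55 ± 0.48, with a 95% confidence interval from -1.66 to 0.56 (limma adjusted p = 0.717), and it was -1.06 without array 3. It was -0.30 without DBAxFVB F1 array 1, -0.29 without array 2 and -0.24 after quantile normalization. The other 2 probe sets did not follow: 1423593_a_at ranged over 0.37 and 1419873_s_at over 0.11 across the 5 arrays, with differences of 0.04 ± 0.25 and 0.06 ± 0.20. The order of arrays for 1419872_at, from DBAxFVB F1 array 3 over AKRxFVB F1 arrays 1 and 2 to DBAxFVB F1 arrays 1 and 2, was also the order of the Actb and Gapdh 3-prime minus 5-prime differences, and the part of RNA quality in it was not tested.

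Ms4a6b, a membrane protein with several membrane spans that T cells express besides myeloid cells, had another pattern. Its brighter probe set, 1418826_at, read 6.92 and 7.21 in AKRxFVB F1, and 6.57, 5.6 and 5.22 in DBAxFVB F1. The groups did not overlap, and DBAxFVB F1 array 3 was the lowest. The difference was -1.27 ± 0.43 (limma adjusted p = 0.382), or -0.98 without array 3. The dimmer probe set, 1439956_at, read 4.24 and 4.60 against 4.66, 4.07 and 2.77, with overlapping groups and a difference of -0.59 ± 0.49 that was -0.06 without array 3.

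Across the 9 genes, the 2 lowest of the 5 values lay on DBAxFVB F1 arrays 1 and 2 in 7, the exceptions being Ncf1 and Ms4a6b. In Cst3 the margin was small, at 6.90 and 6.91 against 7.01 on array 3. The share of all probe sets with this order was not counted. These 2 arrays also had the lowest 3-prime minus 5-prime differences of Actb and Gapdh, and the part of RNA quality in the order was not tested. Array 3 of the same cross exceeded at least 1 AKRxFVB F1 array in Cyba, Lyz2, Csf1r and Ncf1. With each gene centred on its mean over the arrays, the median of the 9 was 0.70 and 0.32 for AKRxFVB F1, and -0.63, -0.69 and 0.29 for arrays 1, 2 and 3 of DBAxFVB F1. On array 3 of DBAxFVB F1 this median lay just under that of AKRxFVB F1 array 2.

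Bright probe sets in general were lower in DBAxFVB F1, so each member was set beside the probe sets of its own level. Of the probe sets with a mean of 7 to 8, 90.5% were lower in DBAxFVB F1, with a median difference of -0.54, and of those of 8 to 9, 91.5%, with a median of -0.55. In the first range a difference as low as that of Ctss was seen in 3.65% of 274 probe sets and one as low as that of Cst3 in 35.8%. In the second range the share was 19.6% of 199 for Lyz1 and 67.3% for Lyz2. Lyz2 and Cst3 were thus close to equally bright probe sets in the difference between crosses, and Lyz2 lay 0.11 above its median. They were not alike by array. Centred on their own means, probe sets of 8 to 9 had medians of 0.19 and 0.38 in AKRxFVB F1. On DBAxFVB F1 arrays 1, 2 and 3 these medians were 0.04, 0.23 and -0.93, and in the range of 7 to 8 they were 0.05, 0.18 and -0.83. Lyz2 and Cst3 were instead lowest on DBAxFVB F1 arrays 1 and 2.

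At lower levels the general shift was smaller. Probe sets with a mean of 4 to 5 had a median difference of 0.03, and 1.49% of 2746 differed by as much as Cybb and 8.85% by as much as Cyba. Of 554 probe sets with a mean of 6 to 7, whose median was -0.38, 6.32% were as low as Ms4a6b. The share was 24.8% of 1159 for Csf1r 1419872_at and 14.1% of 7775 for Ncf1. These shares describe where the members lie and are not p-values. Centred on their own means, probe sets of 6 to 7 had medians of 0.07 and 0.32 in AKRxFVB F1. On DBAxFVB F1 arrays 1, 2 and 3 these medians were 0.03, 0.07 and -0.54. Like Ms4a6b 1418826_at, they were highest on AKRxFVB F1 array 2 and lowest on DBAxFVB F1 array 3.

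**Figure D2:**
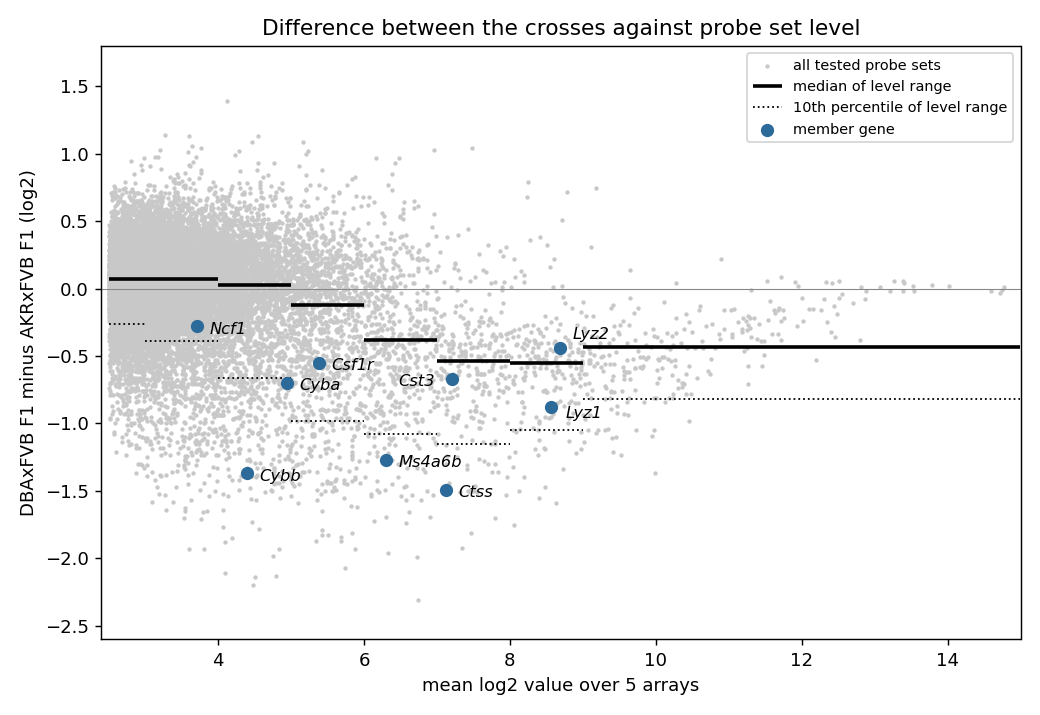
Difference between the crosses (y axis, log2) against the mean level over the 5 arrays (x axis, log2) for all tested probe sets in grey, with the 9 member genes by their brightest probe set in blue, the median of each level range as thick lines and its 10th percentile as dotted lines. Ctss, Cybb, Ms4a6b and Cyba lie below the 10th percentile of their level range, and Lyz2 and Cst3 lie near the median.

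The normalization moved the bright members most. After cyclic loess normalization, which reduces shifts that depend on level, the difference was -1.18 for Ctss, -1.40 for Cybb, -1.05 for Ms4a6b and -0.68 for Cyba, and it was -0.35 for Cst3 and -0.01 for Lyz2. The median of the 9 genes was -0.47 after cyclic loess and -0.29 after quantile normalization. Under both, Ctss, Cybb and Ms4a6b kept the 3 lowest values among the 9.

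**Figure D3:**
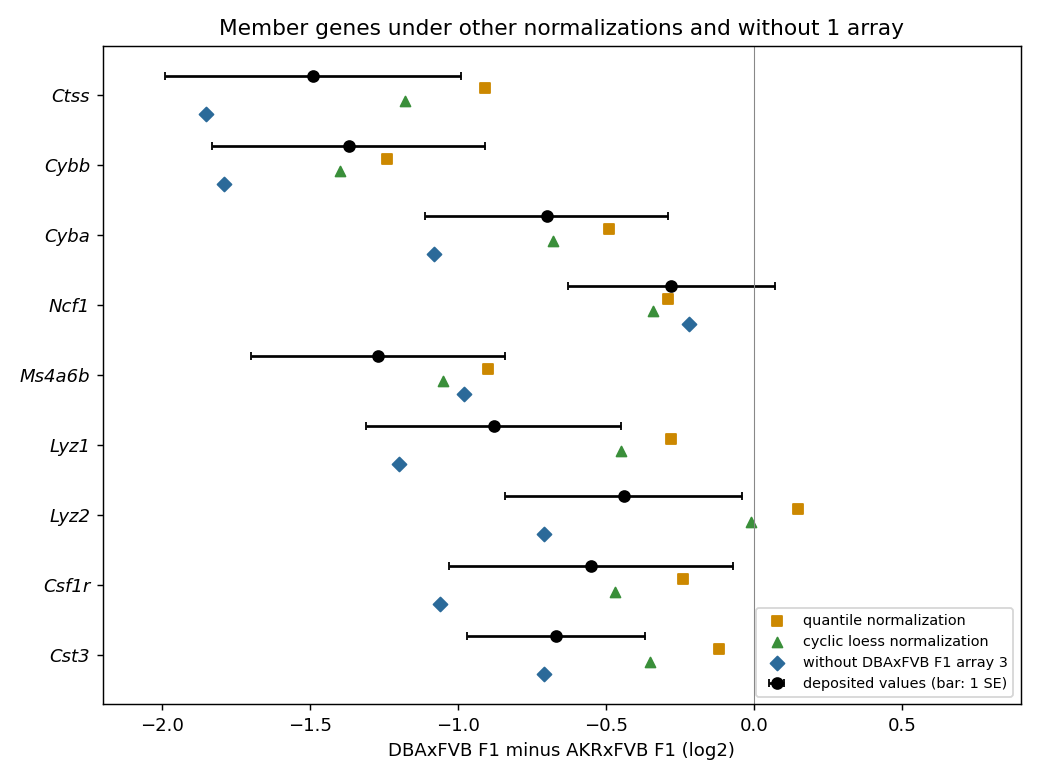
Difference between the crosses (x axis, log2) of the 9 genes by their brightest probe set, from the deposited values with bars of 1 standard error, after quantile and after cyclic loess normalization, and without DBAxFVB F1 array 3. Without that array Ctss and Cybb stood at -1.85 and -1.79, and Lyz2 ranged from -0.71 to 0.15 over the 4 settings.

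Related genes did not all share the members' difference. Of 36 other lysosomal proteins, 29 were tested, 19 lower and 10 higher, with a median of -0.14 and 0 past the adjusted threshold in limma. At an unadjusted p below 0.05 there were 4 lower and 1 higher, against 6.79% and 3.59% of all probe sets tested. Of all probe sets tested, 43.2% were lower at any size. Npc2, which carries cholesterol out of lysosomes, read 7.47 and 7.0 in AKRxFVB F1 against 6.37, 5.67 and 5.76 in DBAxFVB F1, a difference of -1.30 ± 0.34 (limma adjusted p = 0.251). The cathepsin Ctso differed by -1.07 ± 0.32 and the lysosomal beta-galactosidase Glb1 by 0.40 ± 0.16. The list median was 0.05 after quantile normalization and -0.12 without DBAxFVB F1 array 3. Only 1 cathepsin inhibitor of 7 listed besides Cst3 was bright enough to be tested, Cstb, at -0.11 ± 0.18.

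Genes around Csf1r were split, 5 higher and 5 lower of 10, with a median of 0.02. Its ligand Csf1 differed by 0.53 ± 0.24 and the transcription factor genes Runx1 and Cebpa by 0.93 ± 0.32 and -0.33 ± 0.15. Of 14 other MS4A genes, 9 were tested, 6 higher and 3 lower, with a median of 0.07. The lowest were the B cell antigen gene Ms4a1, at -1.96 ± 0.45, and Ms4a4b, a T cell gene, at -1.40 ± 0.57. None of these genes passed in limma.

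Markers of monocytes beyond the 9 genes were evenly divided in number, though not in level. Of 20 listed, 14 were tested, 7 higher and 7 lower in DBAxFVB F1, with a median of -0.01, which was 0.10 after quantile normalization, 0.06 if DBAxFVB F1 array 3 was left out and 0.11 if AKRxFVB F1 array 1 was. At an unadjusted p below 0.05, 1 was lower, against 6.79% of all probe sets tested. This was Plac8, at -1.84 ± 0.57, which read 7.49 and 6.08 in AKRxFVB F1 against 4.21, 4.75 and 5.88 in DBAxFVB F1. It was lowest on arrays 1 and 2 of DBAxFVB F1, as Ctss was. Cd14, the co-receptor for bacterial lipopolysaccharide, differed by 0.69 ± 0.43 and was highest on DBAxFVB F1 array 3, at 5.14, and Mpeg1, a pore-forming protein of phagocytes, differed by -0.38 ± 0.26. None of the markers that were higher in DBAxFVB F1 had a mean above 4.6 in either cross. The brighter F13a1, Fn1 and Ifitm3 were lower, at -0.43 ± 0.59, -0.31 ± 0.76 and -0.06 ± 0.28. The median of the list was not matched for level. The summed level of the list was 8.88 to 9.17 (log2) in AKRxFVB F1 and 8.46 to 9.0 in DBAxFVB F1, so the groups overlapped.

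B cell markers were mostly lower as well. Of 11 tested, 10 were lower in DBAxFVB F1, against 43.2% of all probe sets tested. Of the 11, 4 were lower at an unadjusted p below 0.05, against 6.79%. The median was -0.63, and -0.94 without DBAxFVB F1 array 3. Leaving out AKRxFVB F1 array 1 or 2 gave -0.36 or -1.17. The summed level of the list was 8.23 to 9.34 in AKRxFVB F1 and 7.24 to 8.0 in DBAxFVB F1. The B cell transcription factor gene Spib read 6.14 and 5.11 against 3.80, 3.19 and 4.57. Like Cybb, it was lowest on DBAxFVB F1 array 2 and highest in its cross on array 3. Ebf1, another B cell transcription factor gene, read 4.4 and 2.76 against 2.46, 2.34 and 2.39, and was about equal on the DBAxFVB F1 arrays. Centred per gene, the B cell list had medians of 0.92 and -0.06 in AKRxFVB F1, and of -0.49, -0.53 and 0.01 in DBAxFVB F1. The part of B cell content in the differences of Ctss, Cybb and Cyba was not tested.

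T cell markers were lower in 9 of 10, against 43.2% of all probe sets tested. Their median was -0.35, or -0.26 without DBAxFVB F1 array 3. Their centred medians were 0.11 and 0.30 in AKRxFVB F1, and 0.04, -0.29 and -0.20 in DBAxFVB F1, lowest on array 2. The 3 members with the smallest p differed in their order of arrays. Cd3d, of the T cell receptor complex, read 5.51 and 5.68 against 4.94, 4.09 and 3.61 and was lowest on array 3, as Ms4a6b was. The surface antigen genes Cd2, at 5.29 and 4.4 against 3.75, 3.43 and 3.97, and Thy1, at 3.11 and 3.70 against 2.74, 2.58 and 2.78, were highest in their cross on that array. The summed level of the list was 8.07 to 8.25 in AKRxFVB F1 and 7.67 to 7.92 in DBAxFVB F1, and its part in the difference of Ms4a6b was not tested. Markers of neutrophils, which carry the oxidase and lysozyme too, were higher in 10 of 13 and lower in 3. Of all probe sets tested, 43.2% were lower, which was not matched for level. The neutrophil list was not matched either. Their median was 0.16, or 0.09 without DBAxFVB F1 array 3. Their summed level overlapped, at 8.24 to 8.89 and 8.10 to 8.81. None of the higher ones had a mean above 4.54 in either cross. The brightest, S100a8 and S100a9, were lower, at -0.40 ± 0.41 and -0.36 ± 0.42. S100a9 read 7.51 and 6.90 in AKRxFVB F1 against 6.59, 6.42 and 7.51 in DBAxFVB F1. Of 10 dendritic cell markers 7 were tested, with a median of 0.05 and summed levels of 6.14 to 6.43 and 6.02 to 6.43.

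**Figure D4:**
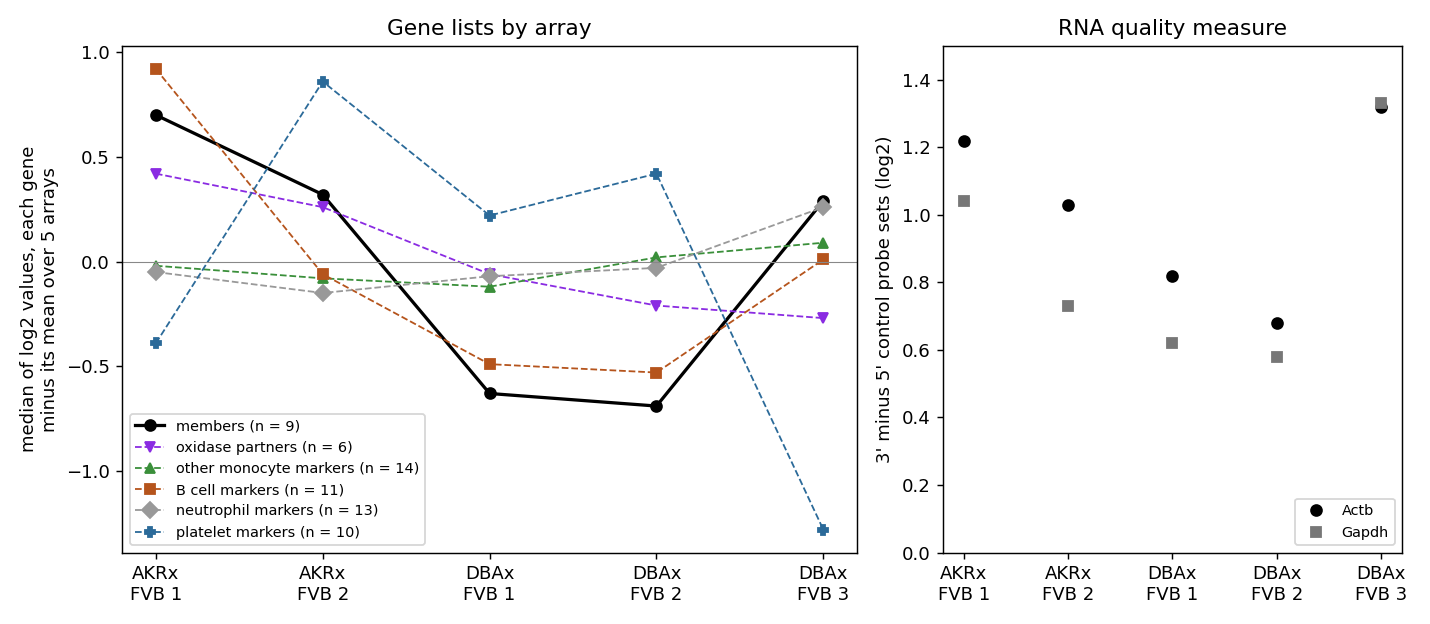
Left, median of log2 values centred per gene (y axis) on each array (x axis) for the 9 genes and 5 marker lists, with lines that only join the values of a list; right, 3-prime minus 5-prime control probe sets (y axis, log2) of Actb and Gapdh on the same arrays. The 9 genes stood at 0.70 and 0.32 in AKRxFVB F1 and at -0.63, -0.69 and 0.29 in DBAxFVB F1, and the control differences were lowest on DBAxFVB F1 arrays 1 and 2.

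The other blood components varied in their own ways. Platelet markers were lower in 9 of 10, against 43.2% of all probe sets tested, with a median of -0.48. Their centred medians were -0.39 and 0.86 in AKRxFVB F1 and 0.22, 0.42 and -1.28 in DBAxFVB F1. This was another order of arrays than that of the members. Leaving out DBAxFVB F1 array 3 turned their median difference to 0.05, and leaving out AKRxFVB F1 array 2 to 0.22. Erythroid markers had a median of 0.03 over 10 genes. Of 8 heart muscle markers, which a cardiac puncture can bring, 4 were bright enough to be tested, and 3 of them were higher in DBAxFVB F1, with summed levels of 5.56 to 5.69 and 5.89 to 6.38.

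The genes closest to the members in their pattern over the 5 arrays were taken as those with the smallest root mean square difference between values centred on their own means, among the tested probe sets with 1 symbol. For Ctss they were the invariant chain gene Cd74 at 0.09, Vim, the intermediate filament vimentin, at 0.10, and Ighm, the IgM heavy chain, at 0.11, where the values of Ctss themselves had a root mean square of 0.91 about their mean. Cd74 read 9.02 and 7.64 in AKRxFVB F1, and 6.29, 6.60 and 7.60 in DBAxFVB F1. Cybb was the 15th gene in this order, at 0.24, and the closest of the other members. For Cybb the closest were Nme2, a nucleoside diphosphate kinase, at 0.08, and Elovl5, a fatty acid elongase, and Vim at 0.16 each.

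For Csf1r 1419872_at the closest gene was Tyrobp, the signalling adaptor DAP12, at 0.09, followed by the lysosomal activator protein gene Gm2a and Timm17a at 0.15 each. Tyrobp read 4.34 and 4.0 in AKRxFVB F1, and 3.36, 3.15 and 4.73 in DBAxFVB F1, again with DBAxFVB F1 array 3 highest. Cyba was the closest member to Csf1r, at 0.21 and rank 11. For Lyz2 the closest were Acadl at 0.04, Abca1 at 0.06 and Cd83 at 0.07. Lyz1 stood at rank 42 with 0.15, by 1439426_x_at. Ms4a6b was the farthest member from Ctss, Cybb, Lyz2 and Csf1r alike, at 0.84 to 1.01. Likeness over 5 arrays is a description, since all genes share the same samples.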

How the data were processed

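The authors deposited 1 log2 expression value per probe set and array; neither labels nor header name the log base, which was inferred from the range, 1.293 to 14.82. MAS5 and RMA are both named, per the submitters' processing notes, without saying which of them made the deposited values, so the compression of dim signals and the scaling between arrays are unknown. The platform annotation gave 1 symbol to 34958 of 45101 probe sets. Controls (64) were left out, and probe sets with a mean at or above the median of 2.512 were tested (22519) with limma 3.58.1 in R 4.3.3 (lmFit, eBayes with a variance trend), with cross as sole term, 3 residual degrees of freedom and two-sided p-values adjusted by Benjamini-Hochberg over all probe sets tested. An exact permutation test of 2 against 3 arrays cannot go below 0.1. Each gene was represented by its brightest tested probe set. In the search for the closest patterns, the other genes stood by whichever of their tested probe sets lay closest.

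The 9 genes and the 13 context lists were chosen with earlier results of these data known, so no list was tested. Context genes named with values were all oxidase partners and, in the other lists, came from the 3 with the smallest p. Not every such gene is printed. S100a8, S100a9, F13a1, Fn1 and Ifitm3 were named in addition, for their brightness in their lists. Of 176 list entries, 155 had a probe set with 1 symbol and 134 were tested. Summed levels are the log2 of the summed linear values of a list. The fit was tested on simulated data. Alternatives were other normalizations, filters and variance models, array weights, a block for the replicate number, and each array left out. A planned comparison of the Lyz1 and Lyz2 proteins was not made. The number of arrays limits the precision. Python 3.11.15, pandas 2.3.3 and matplotlib 3.10.9 prepared the tables and plots.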

Additional observations from a re-analysis of the deposited data

How the results depend on the processing

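No setting brought a member past the adjusted threshold. Of the 16 tested member probe sets, the number at an unadjusted p below 0.05 was 3 in the report, 1 after quantile normalization, 6 without a variance trend, 8 with array weights and 0 to 10 with 1 array left out. Over all probe sets it was 2337, 3880 without a filter, 1299 with the filter at the 75th percentile (more or fewer probe sets tested) and 1271 to 2514 with 1 array left out. With the replicate number as a block the member count was 10 and the median difference of the 9 genes -1.06; number 3 occurs only in DBAxFVB F1, so this fit drops that array from the difference. The numbers are not known to pair the samples. Deviations from the cross means correlated at -0.26 for number 1 and 0.17 for number 2. Unlike numbers gave 0.26 for AKRxFVB F1 array 2 with DBAxFVB F1 array 1, and -0.17 for array 1 with array 2. With 2 AKRxFVB F1 arrays the deviations mirror each other, so these values cannot show whether the samples are paired. Lyz2 reversed to 0.15 after quantile normalization. With 1 array left out, Ncf1 1456772_at ranged from -0.93 to 0.37, Ncf1 1451767_at from -0.49 to 0.17, Csf1r 1423593_a_at from -0.14 to 0.23 and Cybb 1422978_at from -0.31 to 0.13. The cause of these changes was not tested.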
